A study of Homo sapiens with 9 samples.

Results

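The genes described here make cholesterol and fatty acids and control that synthesis. The list holds 33 human genes of the pathway driven by the sterol regulatory element-binding proteins (SREBPs). Among the probe sets annotated to a single gene, the one with the highest mean signal stands for the gene. This gave values for 30 of the 33 genes, among 18132 genes measured in the series. FDFT1 (squalene synthase), CYP51A1 (lanosterol 14-alpha-demethylase) and ACSL3 (an acyl-CoA synthetase) had no such probe set and were not analysed here. The measured members were 16 cholesterol synthesis enzymes, 8 fatty acid synthesis genes, 5 SREBP regulators and the sterol transfer protein gene STARD4.

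RNA came from cultures of the established breast cancer line MDA-MB231, human cells of mesenchymal type, and was hybridised to Affymetrix PrimeView arrays. All cultures were plated at 70% confluency in medium with serum and received fresh serum medium with their treatment on the next day for 24 h. The control group (n = 4) received 0.1% DMSO, the BB94 group (n = 2) received 10 µM of the metalloproteinase inhibitor batimastat, and the PD325901 group (n = 3) received 3 µM of this MEK inhibitor. Inhibitors were diluted from a DMSO stock, and how much DMSO the inhibitor cultures received was not stated. Replicates are described as biological, and everything was measured in 1 cell line at 1 dose of each inhibitor.

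SREBPs are made as membrane proteins of the endoplasmic reticulum. When sterols are scarce, SCAP carries them to the Golgi, where the site-1 and site-2 proteases release the part that enters the nucleus and switches on lipid synthesis genes. When sterols are plentiful, the INSIG proteins hold SCAP back. SREBP-2, from SREBF2, acts mainly on the cholesterol enzymes, and SREBP-1, from SREBF1, mainly on the fatty acid enzymes. The serum in the medium is a source of lipoprotein cholesterol.

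Values are log2 signals from RMA, the standard Affymetrix background correction, quantile normalization and probe summary, so a difference of 1 is a doubling. Levels are compared here within a gene and never between genes. The medians of the arrays ran from 6.05 to 6.34, and the brightest background probe set of an array from 6.02 to 6.50. DUSP6, an ERK phosphatase gene read as a check on MEK inhibition, stood at 13.24 to 13.52 in control and at 11.04, 8.99 and 8.02 in PD325901. SPRY4, another ERK feedback gene, stood at 11.09 to 11.30 in control and at 6.72, 5.83 and 4.78 in PD325901. Of 8 mesenchymal cell line markers, 8 lay above background on every array. Limma called 1 of them higher and 2 lower under PD325901 and 0 under BB94. PLAUR averaged 10.89 in control and 9.28 under PD325901, and LOX averaged 9.78 and 10.97. Of 7 luminal breast markers, 3 (GATA3, FOXA1 and KRT19) lay above background on every array of each group, while ESR1, the oestrogen receptor gene that defines luminal cells, was below it at a control mean of 4.43. The summed levels of the 7 were 49.12 to 51.30 in control, 46.68 to 47.86 in BB94 and 50.60 to 51.25 in PD325901, and limma called 2 higher (GATA3 and KRT19) and 1 lower (TFF1, below background) under PD325901 and 2 lower (KRT19 and TFF1) under BB94. Adipocytes and hepatocytes also use this pathway. Of 6 adipocyte markers, 1, 1 and 0 lay above background on every array of control, BB94 and PD325901, and their summed log2 levels were 26.45 to 27.70, 27.13 to 27.31 and 28.45 to 29.30. Of 6 hepatocyte markers, 2 lay above background in each group, with sums of 33.66 to 34.71, 33.87 to 34.52 and 34.58 to 35.47. LEP and TTR, the dimmest of these lists, averaged 3.50 and 3.34 in control. The markers above background in control were FABP4 (mean 6.59) of the adipocyte list and APOA1 (8.39) and SERPINA1 (10.90) of the hepatocyte list. Of 5 leukocyte markers, 2, 2 and 1 lay above background on every array, with sums of 28.19 to 28.93, 27.85 to 28.37 and 28.08 to 28.67. The 2 in control were LYZ (7.20) and CD68 (8.99). Limma called 1 hepatocyte marker higher and 1 leukocyte marker lower under PD325901. The 3' minus 5' difference of ACTB, which grows as RNA is degraded or labelled from the 3' end, was 2.96 to 3.89 in control, 3.91 to 4.22 in BB94 and 3.50 to 4.15 in PD325901. The part of these differences in the results below was not tested.

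SREBPs bind the sterol regulatory element and usually act with neighbouring factors such as NF-Y at CCAAT boxes and Sp1 at GC boxes, and SREBP-1 can also bind an E-box. The 250 bases before the transcription start were searched on both strands for the classical sterol regulatory element with its sixth base free, for the CCAAT box, for the E-box CACGTG and for the GC box GGGCGG. The motifs printed below do not overlap one another. RefSeq promoter windows of build GRCh38.p14 were used for 27 of the 30 members, with 41 windows, and none were used for ACAT2, FASN and SQLE. CCAAT was present in 24 of the 41 windows (58.5%), against 32% of all 35116 windows in the table and 32.8% of the 20403 windows of genes measured here. GGGCGG was present in 34 windows (82.9%), against 42.6% and 54.6%. CACGTG was present in 4 windows (9.76%), in SC5D, SCAP and INSIG1, against 6.34% and 7.38%. The sterol regulatory element was present in 1 window, that of SREBF2, against 0.125% and 0.118%. Windows of 1 gene can overlap, so these shares describe letters near the starts and carry no test.

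Windows are printed for TM7SF2 and LSS, the enzymes that changed with PD325901, for SREBF2, which holds the sterol regulatory element, and for INSIG1, which holds an E-box. Each is given 5′ to 3′ on the gene's strand, with capitals for the sterol regulatory element, the E-box and the CCAAT box (which reads ATTGG where it lies on the other strand), and GC boxes are left in lower case. The windows are TM7SF2 at chr11:65111622-65111871 on the plus strand, LSS at chr21:46228775-46229024 on the minus strand, SREBF2 at chr22:41832855-41833104 on the plus strand and INSIG1 at chr7:155297628-155297877 on the plus strand.
TM7SF2: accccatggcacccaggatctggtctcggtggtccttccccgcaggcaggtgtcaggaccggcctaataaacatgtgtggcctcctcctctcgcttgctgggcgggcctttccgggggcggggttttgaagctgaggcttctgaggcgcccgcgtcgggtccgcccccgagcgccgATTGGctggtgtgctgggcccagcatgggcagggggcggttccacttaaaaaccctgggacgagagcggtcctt
LSS: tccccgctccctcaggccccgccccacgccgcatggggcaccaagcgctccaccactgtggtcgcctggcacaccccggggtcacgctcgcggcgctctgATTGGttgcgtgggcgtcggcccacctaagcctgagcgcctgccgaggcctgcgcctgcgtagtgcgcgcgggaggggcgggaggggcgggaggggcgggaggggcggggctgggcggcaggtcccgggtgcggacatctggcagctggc
SREBF2: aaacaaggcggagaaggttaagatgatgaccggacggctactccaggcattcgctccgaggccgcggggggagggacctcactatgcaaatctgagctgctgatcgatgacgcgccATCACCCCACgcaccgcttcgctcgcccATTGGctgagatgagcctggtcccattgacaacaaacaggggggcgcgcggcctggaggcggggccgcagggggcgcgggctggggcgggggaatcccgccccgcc
INSIG1: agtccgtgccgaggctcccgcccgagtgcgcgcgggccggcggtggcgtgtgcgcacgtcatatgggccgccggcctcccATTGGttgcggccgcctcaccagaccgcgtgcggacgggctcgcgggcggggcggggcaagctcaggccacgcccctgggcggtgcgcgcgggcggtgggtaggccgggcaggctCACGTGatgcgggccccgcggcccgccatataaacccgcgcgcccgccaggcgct
Counted back from the start, the CCAAT box begins at -74 in TM7SF2 and at -106 in SREBF2, and the sterol regulatory element of SREBF2 begins at -134. The windows lie upstream of the starts and hold no part of the transcripts they belong to.

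Under PD325901 most sterol and fatty acid synthesis genes stayed near their control levels, and 2 late enzymes of cholesterol synthesis rose. TM7SF2, the sterol delta-14 reductase gene, rose 3.83-fold, and LSS, lanosterol synthase, rose 1.58-fold. SREBF1 rose 1.31-fold from a level near background. Limma called 3 of the 30 members higher and 0 lower at an adjusted p under 0.05, with 4 higher and 3 lower at an unadjusted p under 0.05. Over all 18132 genes it called 22.8% higher and 12.3% lower. The median log2 change of the members was 0.08, and that of all genes was also 0.08. The median absolute change was 0.14 for the members and 0.19 for all genes. In either direction 10% of the members and 35.1% of all genes were called, a difference that was not tested.

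TM7SF2 reduces the double bond that CYP51A1 leaves in the sterol ring, and its signal was 7.89, 7.96, 8.26 and 8.06 in control, 7.69 and 7.62 in BB94, and 10.17, 9.78 and 9.98 in PD325901. The PD325901 arrays all lay more than a log2 unit above every other array, and the BB94 arrays lay below every control. The control mean of 8.04 ± 0.16 (SD, n = 4) compares with 9.98 ± 0.19 (SD, n = 3) under PD325901, a log2 change of 1.94 with a standard error of 0.11 (limma, adjusted p = 5.4e-07). The call held in 21 of 21 alternative analyses, with changes from 1.68 to 2.05 and adjusted p-values from 6.8e-08 to 2.9e-05. Its 5 probe sets all rose under PD325901, by 1.44 to 1.94. By the endings of their names, 4 of these hold probes that can match other sequences (x_at) and 1 is shared with another transcript (s_at), so by name none is marked as exclusive to TM7SF2. In bulk RNA a change in every cell and a change in some of the cells cannot be told apart.

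LSS closes squalene epoxide into lanosterol, the first sterol of the pathway. Its signal was 7.90, 7.69, 8.14 and 7.90 in control, 8.11 and 7.68 in BB94, and 8.67, 8.55 and 8.47 in PD325901. Each PD325901 array lay above all the others, while 1 BB94 array lay within the control range and 1 just below it. The mean rose from 7.91 ± 0.18 (SD, n = 4) to 8.56 ± 0.10 (SD, n = 3), a log2 change of 0.66 with a standard error of 0.13 (limma, adjusted p = 0.00219). The call held in 21 of 21 alternatives, with an adjusted p of at most 0.0135, and all 3 of its probe sets were called higher. The 2 above background on every array rose by 0.55 and 0.66, and the third was below background on all control arrays.

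**Figure D1:**
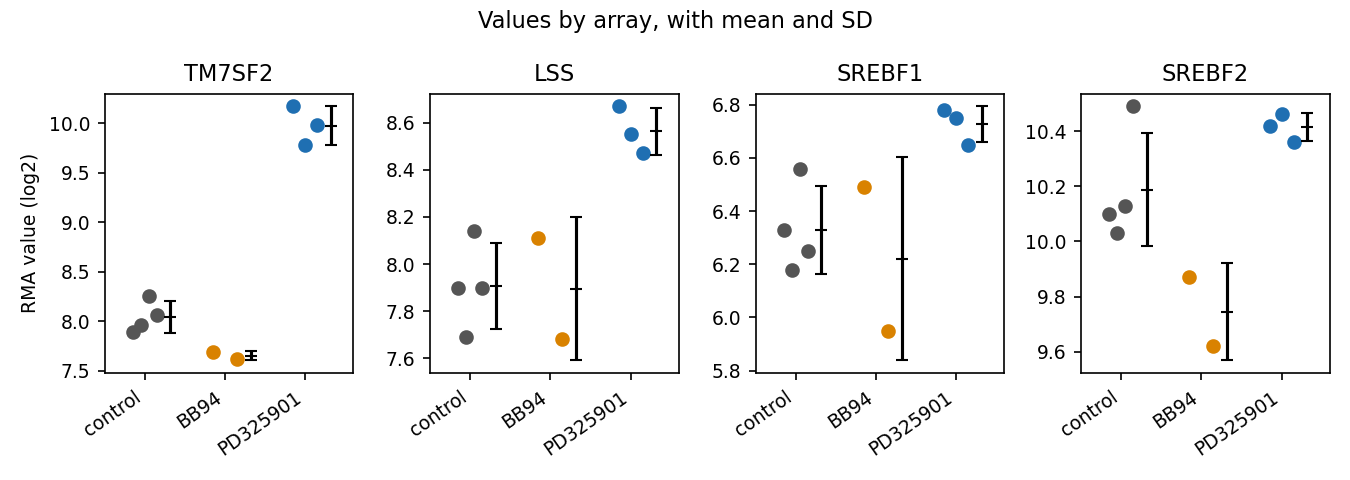
RMA signal (log2, vertical axes with separate ranges that do not start at 0) of TM7SF2, LSS, SREBF1 and SREBF2 on each array of the control (n = 4), BB94 (n = 2) and PD325901 (n = 3) groups, with the group mean and SD beside the points. The 3 PD325901 arrays lie above all other arrays for TM7SF2, LSS and SREBF1, while for SREBF2 control replicate 4 (10.49) lies above them.

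None of the enzymes before LSS passed the test at its brightest probe set. HMGCS1, which makes the HMG-CoA that feeds the pathway, stood at 12.82, 12.64, 12.52 and 12.50 in control, 12.51 and 12.49 in BB94, and 12.82, 12.69 and 12.85 in PD325901. The PD325901 and control values overlapped, with a log2 change of 0.17 (95% interval -0.04 to 0.38, limma adjusted p = 0.212). FDPS, which makes farnesyl diphosphate, the last step shared with the isoprenoids, stood at 12.72, 12.84, 13.07 and 13.26 in control, 12.73 and 12.78 in BB94, and 12.60, 12.76 and 12.71 in PD325901. Its change of -0.28 did not pass the test (95% interval -0.56 to -0.01, limma adjusted p = 0.102), and control replicates 3 and 4 were the high arrays. Without control replicate 1 limma called HMGCS1 higher (0.24, adjusted p = 0.0423) and FDPS lower (-0.37, adjusted p = 0.0203), and it also called EBP, the sterol isomerase, lower (-0.30, adjusted p = 0.0183).

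SQLE, squalene epoxidase and a rate-limiting step of the sterol-specific part, stood at 10.41, 10.55, 10.44 and 10.22 in control and at 10.26, 10.26 and 10.19 in PD325901. The lowest control array lay among the PD325901 arrays, and the change was -0.17 (95% interval -0.39 to 0.05, limma adjusted p = 0.242). IDI1, isopentenyl diphosphate isomerase, had a change of -0.16 and ACAT2, the first thiolase step, of -0.15, with limma adjusted p-values of 0.178 and 0.2. The mevalonate kinases and decarboxylase MVK, PMVK and MVD had changes of 0.06, 0.14 and 0.08, none of which passed the test.

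After TM7SF2 the pathway removes methyl groups and shifts and reduces double bonds to reach cholesterol. EBP, the sterol delta-8,7 isomerase, stood at 12.84, 12.96, 13.11 and 13.17 in control and at 12.68, 12.81 and 12.84 in PD325901. Its change of -0.24 fell just outside the call (limma adjusted p = 0.0748), and the highest PD325901 array equalled the lowest control. MSMO1 and NSDHL, which remove the methyl groups at carbon 4, had changes of 0.09 and -0.07. HSD17B7, the ketoreductase of the same complex, had 0.11, SC5D, the delta-5 desaturase, -0.09, and DHCR7, the final reductase, 0.14. None of these 5 passed the test. Across the 16 cholesterol enzymes 2 rose, 0 fell and 14 were not called, with a median change of 0.07, and 9 changes were above 0 and 7 below. The 95% intervals of the 14 not called all lay within 1 log2 unit of 0, and 13 within 0.5.

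The fatty acid genes did not change detectably under PD325901 at their brightest probe sets. Other probe sets of ACACA, ELOVL6, FADS2 and SCD were called lower, as given below. Limma called 0 of 8, and 0 had an unadjusted p under 0.05. Their median change was 0.00 and their range -0.31 to 0.14. ACLY, which makes cytosolic acetyl-CoA from citrate, had a change of 0.03, and ACACA, which makes malonyl-CoA, of 0.14. FASN, fatty acid synthase, stood at 8.13, 8.07, 8.41 and 8.03 in control, 8.07 and 7.76 in BB94, and 8.28, 7.89 and 7.88 in PD325901. These groups overlapped, with a change of -0.15 (95% interval -0.44 to 0.15, limma adjusted p = 0.469).

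SCD, the desaturase that makes oleate, stood at 14.05, 14.04, 13.89 and 13.88 in control, 14.04 and 14.16 in BB94, and 14.05, 14.00 and 14.19 in PD325901. These overlap too, with a change of 0.12 (95% interval -0.07 to 0.31, limma adjusted p = 0.343). The brightest signal on any array was 14.90 to 15.15, so SCD and ACLY were read near the top of the scale, where differences can be compressed. ELOVL6, which lengthens palmitate, stood at 12.39 to 12.48 in control and 12.30 to 12.34 in PD325901. The groups did not overlap, but the change of -0.13 did not pass the test (limma adjusted p = 0.183).

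FADS2, the delta-6 desaturase, stood at 8.38, 8.32, 9.06 and 8.59 in control and 8.36, 8.20 and 8.27 in PD325901. Control replicate 3 was the high array, and the change of -0.31 had the widest interval of the members not called, down to -0.68 (limma adjusted p = 0.189). FADS1, the delta-5 desaturase, and ACSL1, which activates fatty acids with CoA, had changes of -0.03 and 0.14. Of the 8 intervals, 8 lay within 1 log2 unit of 0 and 7 within 0.5.

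**Figure D2:**
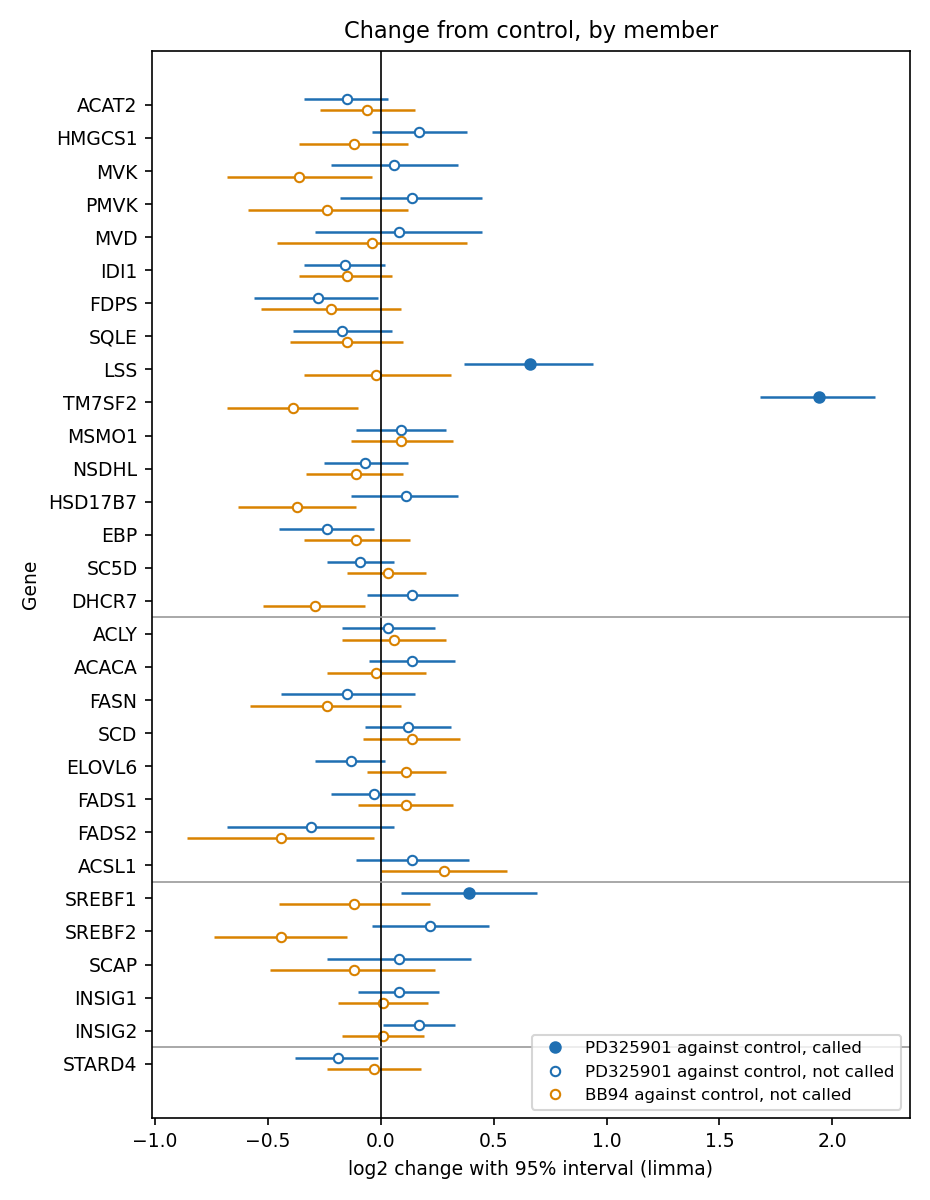
Log2 change from control (horizontal axis, limma estimate with its 95% interval) for the 30 members under PD325901 and BB94, in the order cholesterol enzymes, fatty acid genes, regulators and STARD4, divided by grey lines. Filled points passed an adjusted p under 0.05, which holds for LSS, TM7SF2 and SREBF1 under PD325901 and for 0 members under BB94.

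On the deposited scale all 5 changes of the regulators were above 0, with a median of 0.17, and 1 of 5 was called. Over all 18132 genes 11700 changes were above 0. SREBF1 stood at 6.33, 6.18, 6.56 and 6.25 in control, 6.49 and 5.95 in BB94, and 6.78, 6.75 and 6.65 in PD325901. The PD325901 arrays lay above all others by a small margin, and 3 of 4 control arrays and 1 of 2 BB94 arrays exceeded the background of their array. The control mean of 6.33 ± 0.16 (SD, n = 4) compares with 6.72 ± 0.07 (SD, n = 3), a log2 change of 0.39 with a standard error of 0.13 (limma, adjusted p = 0.043). The call was lost in 11 of 21 alternatives, among them the analyses without control replicate 1 (adjusted p = 0.0527), 2 (0.108) or 4 (0.0909) and those without PD325901 replicate 1 (0.131), 2 (0.117) or 3 (0.0725). Both of its other probe sets lay below background on all control arrays, with a change of 0.02 in 1 and a higher call in the other.

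SREBF2 stood at 10.10, 10.03, 10.13 and 10.49 in control, 9.87 and 9.62 in BB94, and 10.42, 10.46 and 10.36 in PD325901. The PD325901 arrays lay above 3 controls and below the fourth, and the BB94 arrays lay below all others. Neither difference from control passed the test, with 0.22 under PD325901 (95% interval -0.04 to 0.48) and -0.44 under BB94 (95% interval -0.74 to -0.15), both at a limma adjusted p of 0.19. Control replicate 4 decides the first of these: without it SREBF2 was called higher under PD325901 (log2 0.32, limma adjusted p = 0.0194). It was also called with array weights (0.33, adjusted p = 0.00853), with the replicate number as a block (0.32, adjusted p = 0.0337) and against control replicates 1 and 2 alone (0.34, adjusted p = 0.0212), while centred over genes its change was -0.03. The dimmer SREBF2 probe sets changed by -0.07 and 0.02 under PD325901 and by -0.35 and -0.10 under BB94, and were not called. SCAP, the escort protein, had a change of 0.08 under PD325901. INSIG1, the retention protein that is itself a classical SREBP target, had 0.08 (95% interval -0.10 to 0.26), and INSIG2 had 0.17 (limma adjusted p = 0.098). STARD4, which carries cholesterol between membranes, stood at 10.42, 10.42, 10.43 and 10.25 in control and 10.11, 10.27 and 10.18 in PD325901, a change of -0.19 (limma adjusted p = 0.105). Without control replicate 4 STARD4 was called lower (-0.24, limma adjusted p = 0.0476).

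The choice of probe set mattered for 7 of the members. The 30 genes had 81 probe sets, 1 to 5 for each, and 5 genes had 1 only. Tested as single probe sets over 49293, 12 were higher under PD325901, in HMGCS1, LSS, SREBF1, STARD4 and TM7SF2, and 6 were lower, in ACACA, ELOVL6, FADS2, IDI1 and SCD. Of all probe sets 17.2% were called higher and 12.1% lower. No gene had probe sets called in both directions. HMGCS1 rose in its dimmer probe set, from 10.85 ± 0.04 (SD, n = 4) to 11.20 ± 0.11 (SD, n = 3), a log2 change of 0.35 (limma, adjusted p = 0.0102).

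IDI1 fell in its dimmer probe set from 10.57 ± 0.11 (SD, n = 4) to 10.11 ± 0.06 (SD, n = 3), a log2 change of -0.45 (limma, adjusted p = 0.00246). A probe set of ACACA was called lower (limma, adjusted p = 0.0016), but its signal exceeded the background on only 1 of the 3 PD325901 arrays, so the size of its change is uncertain. A probe set of SCD fell from 7.68 to 7.22, a change of -0.45 (limma, adjusted p = 0.00549), while the brightest probe sets of both lay above 0. Both of the other ELOVL6 probe sets fell, by 0.35 and 0.30 on the log2 scale. The FADS2 probe set called lower was below background on every array, and 1 of the 5 STARD4 probe sets rose by 0.31. Of the brightest probe sets used for the 30 genes, 12 were named as specific to the gene (a_at), 10 as shared (s_at) and 8 as able to match other sequences (x_at). HSD17B7 was read from a single x_at probe set and has a near-identical pseudogene, so its value is uncertain.

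**Figure D3:**
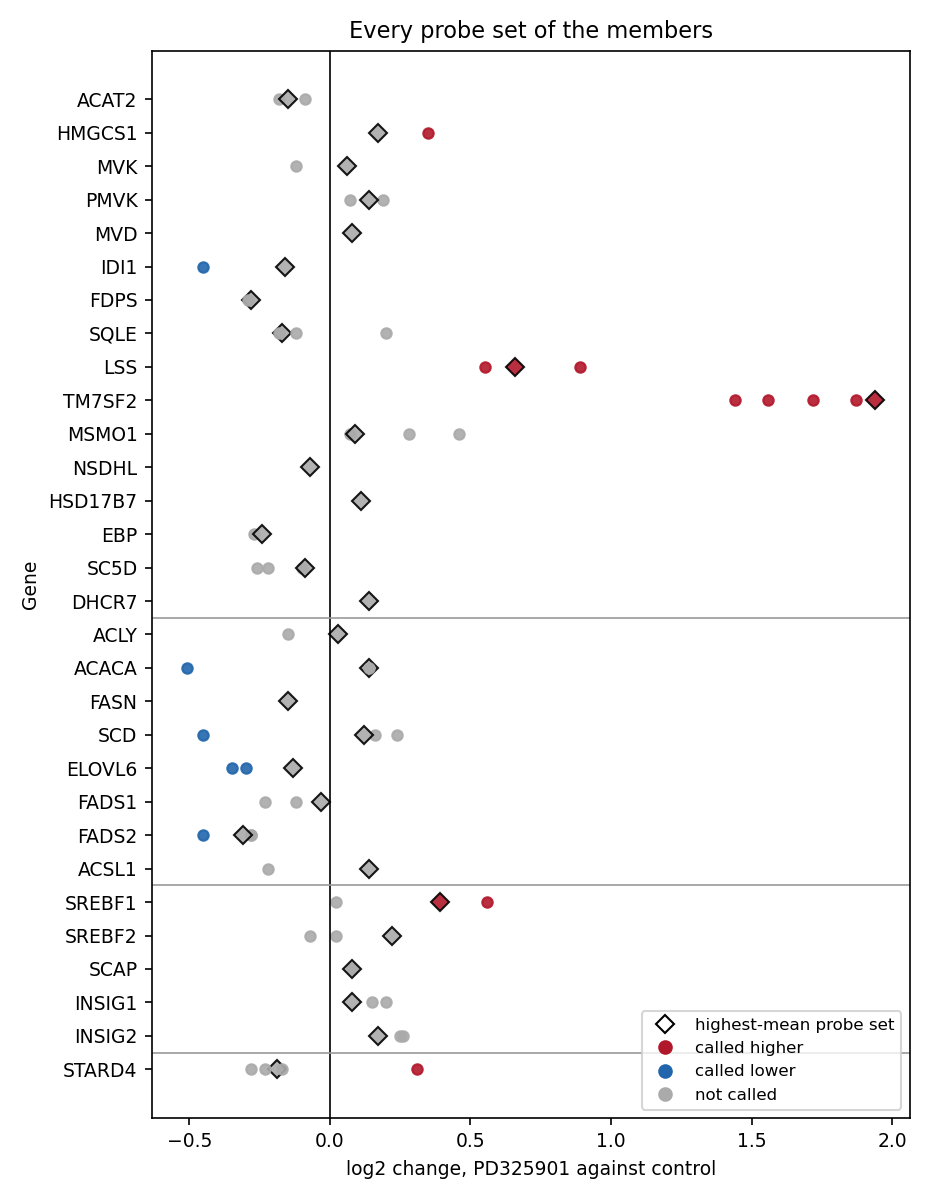
Log2 change under PD325901 against control (horizontal axis) of each of the 81 probe sets of the 30 members, with a diamond for the highest-mean probe set used for the gene and colours for calls over all probe sets. TM7SF2 and LSS are called higher in every probe set (5 and 3), whereas in HMGCS1, IDI1, ACACA, SCD, ELOVL6, FADS2 and STARD4 only other probe sets are called.

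Under BB94 none of the members passed the test. Limma called 0 of 30 in either direction, with 1 higher and 6 lower at an unadjusted p under 0.05. Over all genes it called 0.491% higher and 1.09% lower. The member with an unadjusted p under 0.05 above control was ACSL1 (0.28), and those below were MVK (-0.36), TM7SF2 (-0.39), HSD17B7 (-0.37), DHCR7 (-0.29), FADS2 (-0.44) and SREBF2 (-0.44). The median change was -0.11 for the members and -0.02 for all genes. Among cholesterol enzymes 14 of 16 changes were below 0, with a median of -0.13, and among fatty acid genes 5 of 8 were above 0, with a median of 0.09. Over all 18132 genes 10349 changes were below 0 and 7783 above. The 95% intervals of all 30 lay within 1 log2 unit of 0, and 20 within 0.5.

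The controls themselves were divided in these genes. In 14 of the 30 members control replicates 3 and 4 both lay above replicates 1 and 2, and in 8 both lay below. Over all genes the shares were 21.01% above and 41.08% below, against 46.67% and 26.67% of the members. The 14 were mostly cholesterol enzymes (ACAT2, MVK, PMVK, MVD, FDPS, LSS, TM7SF2, NSDHL, EBP and DHCR7) with ACACA, FADS2, SREBF2 and SCAP. All BB94 arrays lay inside the control range for 11 members, and all PD325901 arrays for 8. These counts rest on 2 and 3 arrays and were not made over all genes, so they describe the members only. Against control replicates 3 and 4 alone limma called 6 members under BB94. PMVK, FDPS, DHCR7, FADS2 and SREBF2 were then lower and ACSL1 higher, and against replicates 1 and 2 alone 0 were called. Over all 18132 genes limma called 859 higher and 774 lower against replicates 3 and 4 alone. Against replicates 1 and 2 alone it called 79 and 233, and with all 4 controls 89 and 197. Nothing in the labels divides the controls in this way.

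The arms did not part consistently under PD325901, and under BB94 their difference rests on 2 arrays and varied with the controls used. Taking each array's deviation from the control mean, the median of the cholesterol enzymes minus that of the fatty acid genes was -0.11, -0.11, 0.07 and 0.13 in the controls. It was -0.19 and -0.28 in BB94, and 0.09, 0.04 and -0.10 in PD325901. The PD325901 values lay within the control range, and the BB94 values lay below it. As a difference of median changes the arms differed by 0.07 under PD325901 and by -0.22 under BB94. With control replicates 3 and 4 alone these became -0.14 and -0.35, and with replicates 1 and 2 alone the BB94 difference became -0.08.

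**Figure D4:**
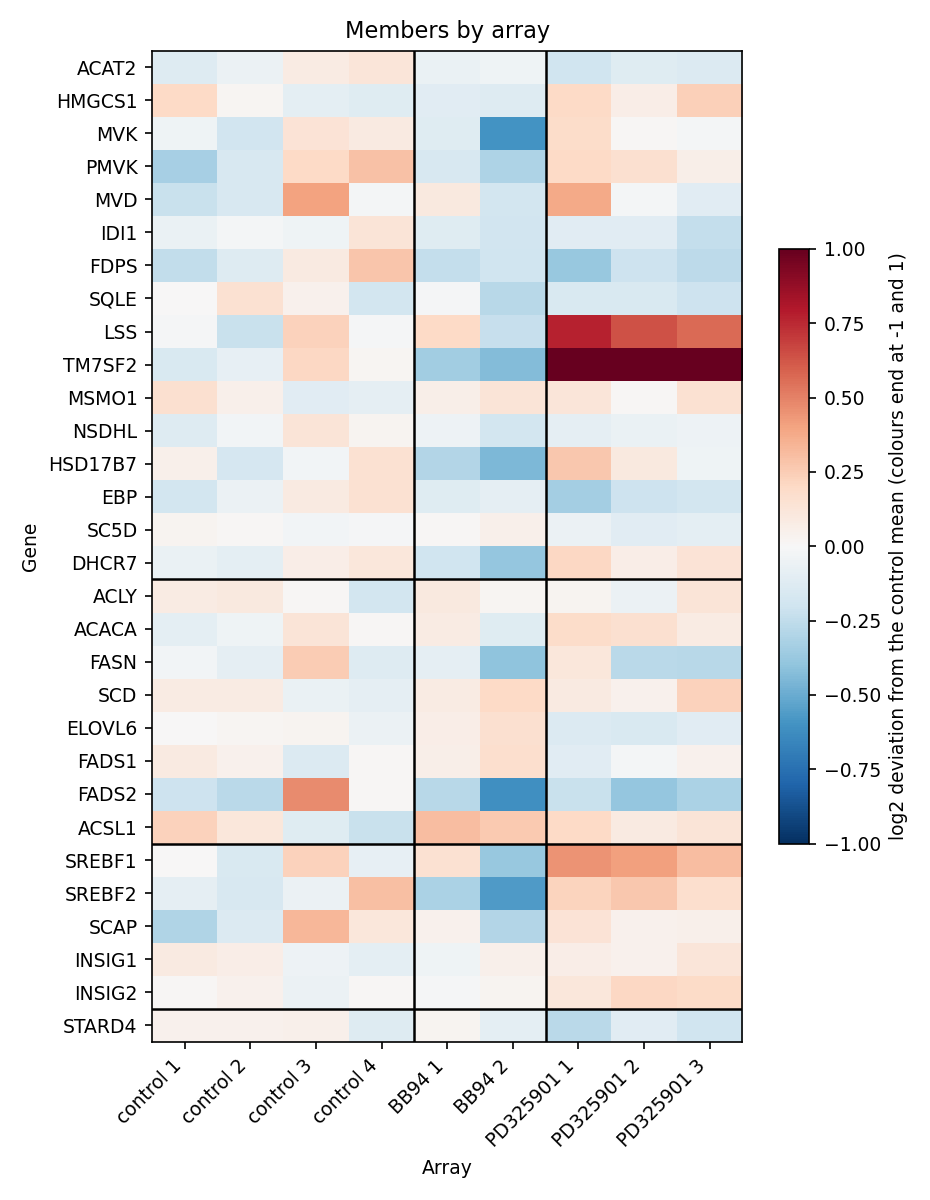
Deviation of each of the 30 members from its control mean (log2, colour scale ending at -1 and 1) on each of the 9 arrays, with black lines between groups and between roles. The LSS and TM7SF2 rows are red on the 3 PD325901 arrays, and the control columns change colour between replicates 1 and 2 and replicates 3 and 4 in rows such as FDPS, PMVK and SCAP.

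Set directly against each other, the inhibitors differed in 7 members, with 6 higher and 1 lower under PD325901 than under BB94. Over all genes limma called 21% higher and 10.2% lower, and the median difference was 0.08 for the members and 0.11 for all genes. Both inhibitors share the controls in their own comparisons, but this contrast uses only the treated arrays apart from the shared estimate of spread. TM7SF2 was 5.01-fold higher (log2 2.33, standard error 0.14, limma adjusted p = 8.1e-07) and LSS 1.59-fold higher (log2 0.67, limma adjusted p = 0.00657). SREBF2 was 1.58-fold higher (log2 0.66, standard error 0.14, limma adjusted p = 0.00422), the PD325901 arrays standing at 10.36 to 10.46 and the BB94 arrays at 9.62 and 9.87. Of the 3 SREBF2 probe sets only this 1 was called, and the others differed by 0.28 and 0.12.

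SREBF1 was higher by 0.51 (limma, adjusted p = 0.0334). HSD17B7 stood at 10.63, 10.47 and 10.33 in PD325901 and 10.08 and 9.92 in BB94, a difference of 0.48 (limma, adjusted p = 0.014). DHCR7 stood at 9.96, 9.82 and 9.90 against 9.56 and 9.37, a difference of 0.43 (limma, adjusted p = 0.00975). ELOVL6 was lower, at 12.31, 12.30 and 12.34 against 12.52 and 12.61, a difference of -0.25 (limma, adjusted p = 0.0478). The groups did not overlap in these genes. Without BB94 replicate 2 only TM7SF2 was called. The adjusted p was then 0.096 for LSS, 0.0614 for SREBF2, 0.359 for SREBF1, 0.129 for HSD17B7, 0.113 for DHCR7 and 0.248 for ELOVL6. ELOVL6 lost its call in 10 of 21 alternatives, including the analyses without control replicate 2 or 3, BB94 replicate 1 or any 1 PD325901 replicate. SREBF1 lost it also without any 1 PD325901 replicate, and HSD17B7 without PD325901 replicate 1 (0.0532). Of single probe sets 17 were higher, in DHCR7, HMGCS1, HSD17B7, INSIG1, INSIG2, LSS, SREBF1, SREBF2 and TM7SF2, and 2 were lower, in ELOVL6 and SC5D. Of all probe sets, 16.9% were higher and 8.92% lower in this contrast.

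The scale of the arrays sets the direction of small changes. Setting the gene median of every array equal (centring over genes) moved the median change of all genes under PD325901 from 0.08 to -0.17 and the calls from 4142 higher and 2223 lower to 2353 higher and 5076 lower. With equal medians of all probe sets instead, 3292 were higher and 2964 lower. With centring over genes, 2 members were higher (LSS and TM7SF2) and 11 lower (ACAT2, IDI1, FDPS, SQLE, NSDHL, EBP, SC5D, FASN, ELOVL6, FADS2 and STARD4), and the median of the members moved to -0.17 with that of all genes. TM7SF2 and LSS rose under every scaling tried, while the medians of the cholesterol enzymes, fatty acid genes and regulators all fall below 0 when arrays are centred over genes. For PD325901 against BB94, centring over genes turned 3804 higher and 1848 lower into 1990 and 5025, and centring over probe sets into 2471 and 3523.

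The other genes of sterol synthesis and SREBP processing moved in both directions under PD325901. Of 5 measured genes that also serve cholesterol synthesis, ERG28, a scaffold of the C4 demethylation complex, rose from 12.78 ± 0.10 (SD, n = 4) to 13.15 ± 0.06 (SD, n = 3; log2 0.38, limma adjusted p = 0.00405). That call held in 20 of 21 alternatives and was lost with centring over genes (adjusted p = 0.319), where 0 of the 5 rose and 2 fell. LBR, which has the same delta-14 reductase activity as TM7SF2, stood at 13.01, 12.85, 12.69 and 12.64 in control, 12.82 and 12.84 in BB94, and 12.58, 12.39 and 12.54 in PD325901. The PD325901 arrays lay below all others, a change of -0.29 (limma, adjusted p = 0.0457). That call was lost in 11 of 21 alternatives, including the analyses without control replicate 1 or 2, either BB94 replicate or any 1 PD325901 replicate, with an adjusted p of up to 0.185. Of 10 genes of SREBP processing and sterol-regulated degradation, 3 rose and 1 fell, with a median of -0.03. Over all genes 22.8% rose and 12.3% fell. Centred over genes, 1 of the 10 rose and 5 fell, and centred over probe sets 1 rose and 3 fell.

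MBTPS1, the site-1 protease, stood at 8.99, 9.07, 9.16 and 9.10 in control, 9.18 and 9.15 in BB94, and 9.63, 9.64 and 9.65 in PD325901. The PD325901 arrays were nearly equal and lay above all others, a log2 change of 0.56 with a standard error of 0.07 (limma, adjusted p = 1.4e-04) that held in 21 of 21 alternatives. ERLIN1 fell by 0.33 on the log2 scale and its partner ERLIN2, with which it forms an endoplasmic reticulum complex that regulates SREBP, rose by 0.32 (limma, adjusted p = 0.0167 and 0.0372). MBTPS2, the site-2 protease, rose by 0.30. It was named after its value was seen. Without control replicate 3 or 4 or any 1 PD325901 replicate, 1 of the 3 rises remained. The fall of ERLIN1 was lost without control replicate 2 or PD325901 replicate 2 or 3, and 2 genes of the list were lower without control replicate 1 or 4. The call of ERLIN2 held in 8 of 21 alternatives. Under BB94, MARCHF6, a ligase that degrades squalene epoxidase, stood at 11.14 and 11.00 against 11.61 to 11.72 in control, a change of -0.60 (limma, adjusted p = 0.0255). That call was lost without control replicate 2, 3 or 4 or either BB94 replicate, with adjusted p-values of up to 0.352 over the 21 alternatives.

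In the isoprenoid branch, which leaves the pathway at farnesyl diphosphate, 3 of 12 genes rose and 2 fell, with a median of 0.07, beside 22.8% and 12.3% of all genes. Centred over genes 0 rose and 3 fell, and centred over probe sets 0 rose and 2 fell. ICMT, which methylates prenylated proteins, stood at 11.24, 11.29, 11.53 and 11.52 in control, 11.43 and 11.36 in BB94, and 10.74, 10.78 and 10.64 in PD325901. Every PD325901 array was below the rest, a log2 change of -0.67 with a standard error of 0.09 (limma, adjusted p = 2.4e-04). NUS1, a subunit of the dolichol-making prenyltransferase, fell by 0.40, and GGPS1, geranylgeranyl diphosphate synthase, rose by 0.32 on the log2 scale. The other rises were DHDDS (0.31), the partner of NUS1, and FNTA (0.29), a prenyltransferase subunit, both named after their values were seen. Without PD325901 replicate 1, 1 gene of this branch was called higher.

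Among sterol transport, storage and efflux genes, CYP27A1, ABCA1 and NR1H3 rose more than 2-fold. Of 20 measured, 8 rose and 5 fell under PD325901, beside 22.8% and 12.3% of all genes, with a median of 0.12 and a median absolute change of 0.34. Centred over genes 4 rose and 7 fell, with a median of -0.14, and centred over probe sets 5 rose and 6 fell. CYP27A1, the sterol 27-hydroxylase that makes an oxysterol, stood at 8.64, 8.71, 8.93 and 8.91 in control, 8.88 and 8.57 in BB94, and 10.79, 10.74 and 10.68 in PD325901. It rose 3.83-fold (log2 1.94, standard error 0.11, limma adjusted p = 3.2e-07), with no overlap between the groups. ABCA1, the cholesterol efflux pump and a classical target of the oxysterol receptors, stood at 7.34, 7.15, 7.06 and 6.81 in control, 7.16 and 6.82 in BB94, and 8.81, 8.99 and 8.76 in PD325901. It rose 3.39-fold (log2 1.76, standard error 0.13, limma adjusted p = 3.1e-06). NR1H3, which encodes the oxysterol receptor LXR-alpha, rose 2.07-fold, from 8.47 ± 0.20 (SD, n = 4) to 9.52 (log2 1.05, limma adjusted p = 3.3e-05).

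The genes of this list that fell were LRP8 (-1.04) and VLDLR (-0.52), lipoprotein receptors, GRAMD1B (-0.87), a sterol transfer protein above background on 1 of 3 PD325901 arrays, TMEM97 (-0.34) and SOAT1 (-0.24), the sterol esterification enzyme. These 5 were named after their values were seen. The call of SOAT1 held in 12 of 21 alternatives and was lost without control replicate 1 or 2 or any 1 PD325901 replicate. Those of LRP8, VLDLR, GRAMD1B and TMEM97 held in 21 of 21. Without PD325901 replicate 2, 5 genes of the list were called higher. ABCG1, another sterol efflux pump, changed under BB94 and not detectably under PD325901. It stood at 8.45, 8.29, 8.15 and 7.86 in control, 9.25 and 9.11 in BB94, and 8.28, 8.33 and 8.20 in PD325901. The BB94 arrays lay above all others, a 1.99-fold rise (log2 0.99, standard error 0.14, limma adjusted p = 0.00642). The call was lost without either BB94 replicate, with an adjusted p of up to 0.0933. The other genes of these lists were not called under BB94.

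**Figure D5:**
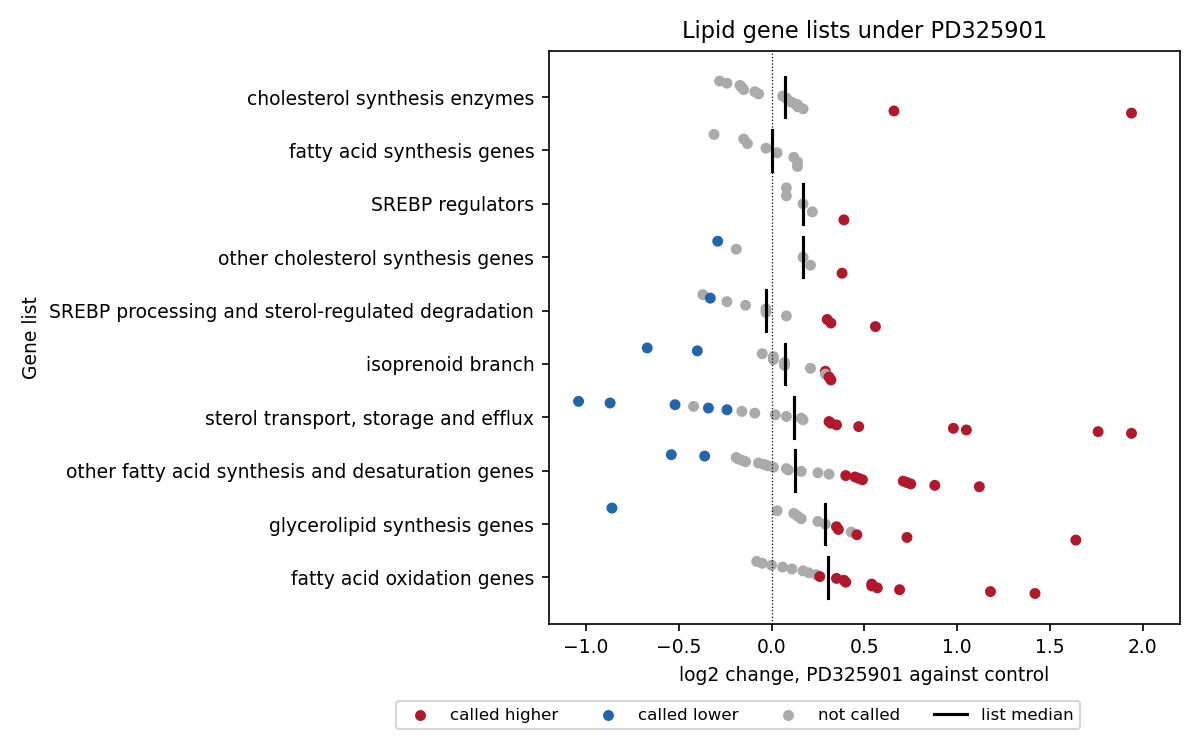
Log2 change under PD325901 against control (horizontal axis) for each measured gene of the 3 member groups with several genes and the 7 other lipid lists, spread vertically within a list, with colours for calls and a black line for the list median. The fatty acid synthesis genes lie between -0.31 and 0.14 with none called, while sterol transport genes run from -1.04 to 1.94.

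Of 24 further fatty acid synthesis genes measured outside the core list, 9 rose and 2 fell, with a median of 0.12, beside 22.8% and 12.3% of all genes. Centred over genes 5 rose and 7 fell, with a median of -0.13, and centred over probe sets 8 rose and 4 fell. ME1, which supplies NADPH, stood at 9.89, 9.78, 9.73 and 9.53 in control, 9.85 and 9.78 in BB94, and 10.83, 10.90 and 10.83 in PD325901. It rose 2.17-fold, with all PD325901 arrays above the rest (log2 1.12, standard error 0.09, limma adjusted p = 5.5e-06). ACACB, the mitochondrial acetyl-CoA carboxylase whose product limits fatty acid oxidation, stood at 9.16 to 9.37 in control, 9.09 and 8.99 in BB94, and 10.12, 10.20 and 10.16 in PD325901. It rose 1.85-fold (log2 0.88, limma adjusted p = 1.0e-05), while ACACA was not called at its brightest probe set. FADS3, a relative of FADS1 and FADS2, rose by 0.75 (limma, adjusted p = 0.00612). The falls were ACSL5 (-0.54), an acyl-CoA synthetase, and HSD17B12 (-0.36), an elongation enzyme, both named after their values were seen. Among the rises, MLXIPL was above background on no control array and on 1 of 3 PD325901 arrays. The rise of ELOVL7 held in 7 of 21 alternatives and was lost without any 1 PD325901 replicate. Those of ME1, ACACB and FADS3 held in 21 of 21. MLXIPL and ELOVL7 were also named after their values were seen.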

How the data were processed

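The values are log2 RMA signals as deposited, which the authors made with affy, as the series' design says. Of 49395 probe sets, 102 controls were left out. The platform annotation gave 1 gene for 44988 probe sets, several for 1832 and none for 2473, and 44961 matched RefSeq (GRCh38.p14), which was used for names and promoter windows. A probe set counted as above background where it exceeded the brightest of 23 background probe sets on its array.

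Groups were compared with limma 3.58.1 (R 4.3.3, lmFit and eBayes, two-sided), with a coefficient per group, a spread shared by all 9 arrays (6 residual degrees of freedom) and Benjamini-Hochberg adjustment over 18132 genes. Precision is limited by the number of arrays. No batch is given in the sources used here, and 0 pairs of arrays held identical values.

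Members and lists were chosen with earlier results of these data known. Called members with the largest changes, up to 6 per role, are given in full, and up to 3 called genes of each other list, with DUSP6 and SPRY4. The fit was tested on simulated data. The 21 alternatives varied probe set choice, filter, weights, scaling, block and arrays.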

Additional observations from a re-analysis of the deposited data

Results flagged for a closer look

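In STARD4, control replicate 4 (10.25) lay far below the other controls, which stood at 10.42 to 10.43, by Dixon's test for a single low or high value. It was 1 of the 30 members tested over the 4 controls, and chance alone gives such a value in about 1 group in 20 (5%).

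The changes from control differed between PD325901 and BB94 in 7 members by the direct limma contrast. In either direction 23.3% of the members and 31.2% of all genes were called in it, a difference that was not tested. The differences on the log2 scale were 2.33 for TM7SF2, 0.67 for LSS, 0.66 for SREBF2, 0.51 for SREBF1, 0.48 for HSD17B7, 0.43 for DHCR7 and -0.25 for ELOVL6. The first 6 had changes above 0 under PD325901 and below 0 under BB94, and ELOVL6 the reverse. For LSS the change under BB94 was only -0.02. Against control, only the PD325901 changes of TM7SF2, LSS and SREBF1 passed the test.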

How the results depend on the processing

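TM7SF2 and LSS kept their direction and call under PD325901 in all 21 alternatives, and no called difference of a member changed sign in any. Cholesterol enzymes called lower under PD325901 (0 as reported) numbered 1 with the mean of probe sets, a filter at a mean of 6 or centring over probe sets, 2 with a trended robust fit or array weights, 7 centred over genes, 3 against control replicates 3 and 4 alone, and 0 to 2 with 1 array left out (2 without control replicate 1). Fatty acid genes called lower (0) numbered 1 with the mean of probe sets, array weights or control replicates 3 and 4 alone and 3 centred over genes, and 1 was higher against those controls. Against control replicates 3 and 4 alone BB94 had 1 member higher and 5 lower, with 859 higher and 774 lower over all 18132 genes. For PD325901 against BB94, members called higher (6) numbered 2 centred over genes, 3 centred over probe sets and 5 with the replicate block. They numbered 7 with a trended robust fit and 8 with the filter, the compared groups only or control replicates 1 and 2 alone. With the mean of probe sets, array weights or control replicates 3 and 4 alone they numbered 9. With 1 control or PD325901 array left out they numbered 4 to 7. HMGCS1, not called as reported, was called higher in 9 of 21 alternatives. Members called lower (1) numbered 0 with all probe sets or cyclic loess, 10 and 5 with the 2 centrings, and 0 to 1 with 1 array left out. The arm difference under PD325901 (0.07) was -0.14 against control replicates 3 and 4 alone, and that under BB94 (-0.22) was -0.09 with the mean of probe sets, -0.08 against control replicates 1 and 2 alone and -0.35 against replicates 3 and 4 alone. The causes were not tested.

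Deviations of same-numbered arrays from their group means correlated at -0.19 to 0.12. Deviations within groups this small are tied to one another, so these values cannot show whether same-numbered samples were paired. With the replicate block, 0 members were lower under PD325901 than under BB94, SREBF1 lost its PD325901 call (adjusted p = 0.078), SREBF2 gained one (0.0337), and TM7SF2 had its highest adjusted p, 2.9e-05.

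Signals near background limit SREBF1, and signals near the top of the scale limit SCD and ACLY. Only 2 arrays carry BB94, and leaving out a BB94 array leaves 1, assumed to vary like the other groups.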

Other observations

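Genes that store fatty acids as glycerolipids, and those that burn them, hold further changes under PD325901. Of 13 measured glycerolipid genes 5 rose and 1 fell, beside 22.8% and 12.3% of all genes, with a median log2 change of 0.29. LPIN3, a phosphatidate phosphatase, stood at 7.01, 6.66, 7.18 and 6.67 in control, 7.38 and 7.13 in BB94, and 8.52, 8.54 and 8.48 in PD325901, a 3.11-fold rise (limma, adjusted p = 4.8e-06). Its relative LPIN2 fell, from 10.48 to 10.89 in control to 9.85, 9.82 and 9.75 (log2 -0.86, limma adjusted p = 7.4e-05). PLIN2, a lipid droplet coat protein, rose by 0.73. The other rises were PCYT2 (0.46), PCYT1A (0.36) and PLIN3 (0.35), named after their values were seen. Without any 1 PD325901 replicate 3 genes of this list were called higher, and centred over genes 2 were higher and 1 lower with a median of 0.04, and centred over probe sets 2 were higher and 1 lower.

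Of 18 genes of fatty acid oxidation 10 rose and 0 fell, beside the same shares of all genes, with a median of 0.30 and 12 at an unadjusted p under 0.05, all higher. PDK4, which turns mitochondria from glucose towards fat, stood at 8.73 to 9.13 in control, 9.77 and 9.38 in BB94, and 10.46, 10.29 and 10.49 in PD325901, a 2.67-fold rise (limma, adjusted p = 9.3e-06). PPARA, a transcription factor of fatty acid oxidation, rose 2.26-fold, from 6.45 to 6.67 in control to 7.76, 7.80 and 7.65 (limma, adjusted p = 5.8e-06), and CPT1C rose by 0.69. Centred over genes, 4 rose and 2 fell with a median of 0.05, and centred over probe sets 7 rose and 0 fell. Of the 10 rises, that of ACADS lay below background on every array and held in 12 of 20 alternatives. The rise of ACADVL held in 11 of 21, and those of PDK4, PPARA and CPT1C held in 21 of 21. ACADS and ACADVL were named after their values were seen.

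Of the 6 adipocyte markers, limma called PLIN1 and LPL higher under PD325901, though both were below background on every array, and FABP4 lower, which was above background on every control array and on 0 of the 3 PD325901 arrays.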
